A study of Mus musculus with 8 samples.

Results

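Immediate early genes are the genes a cell transcribes within minutes of a growth signal or an injury, before any new protein has to be made. The 10 genes described here were Fos, Fosb, Jun and Junb, which encode subunits of the transcription factor AP-1, Egr1, Ier2, Ier3, Klf6, Myc and Maff. They were selected by symbol, from values measured in these same livers and with the difference between the genotypes known, so every difference between the genotypes in them is a description and carries no test. All 10 were found among 55385 gene identifiers in the table, and 9 of them were among the 14340 genes tested. Fosb did not pass the filter on low values, which asked for 0.5 FPKM or more in 4 or more livers. FPKM is a read count scaled to the length of the gene and to all counted reads of the same liver.

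The livers came from male littermates on a C57BL/6J background, killed at 5 weeks of age after a fast of 16 h. In the Usp39-HKO group (n = 4 livers, 1 mouse each) exon 2 of Usp39, which encodes a spliceosome protein of the tri-snRNP, is flanked by loxP sites. The exon is removed by Cre recombinase under the albumin promoter, which is active in hepatocytes. The paper calls the deletion hepatocyte-specific, and these data do not show whether other liver cells keep the gene. The control group (n = 4 livers) is labelled WT, and neither the labels nor the methods say whether its mice carried the floxed allele or Cre. RNA of whole liver was sequenced, which asked which transcripts differ once hepatocytes lack Usp39. Livers are named by group and number, and the numbers were given in order and pair no mice.

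In the resting liver these genes are held low. After partial hepatectomy or injury, cytokine and growth factor signals reach hepatocytes through MAP kinases, and FOS and JUN proteins, EGR1 and MYC are among the first factors made as quiescent hepatocytes enter the cell cycle. FOS and JUN proteins are basic leucine zipper (bZIP) proteins that bind DNA as dimers, at the TPA response element TGACTCA and, with ATF proteins, at the cAMP response element TGACGTCA. Most of their mRNAs are short-lived, and AU-rich elements in the 3′ untranslated region are one known mark of such mRNAs. The transcripts of AP-1 genes also rise when tissue is handled or kept warm, in any cell type of the liver.

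The proximal promoters are shown first, because bZIP sites in them are the route by which AP-1 and ATF proteins are known to act on their own genes. RefSeq promoter sequences (GRCm38.p6, which has the coordinates of mm10) were at hand for 7 of the 10 genes, with 9 windows in all since Maff has 3 starts. None was at hand for Egr1, Ier2 and Myc, so no motif result below covers these genes. The 250 bases before each start were searched on both strands for TGACGTCA, TGACTCA, TGACATCA and the core TGACG, which also lies inside TGACGTCA. TGACATCA is a variant of the cAMP response element that in the human JUN promoter is known to bind JUN with ATF2. At least one of these was found in 7 of the 9 windows and in 6 of the 7 genes, against 24.1% of all 32851 windows. Each line below is a stretch before the start, 5′ to 3′ on the gene's strand, and the capitals mark the matched letters.
Jun, chr4:95052223-95052312, minus strand: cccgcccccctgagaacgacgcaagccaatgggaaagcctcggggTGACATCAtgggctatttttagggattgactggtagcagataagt
Klf6, chr13:5861329-5861418, plus strand: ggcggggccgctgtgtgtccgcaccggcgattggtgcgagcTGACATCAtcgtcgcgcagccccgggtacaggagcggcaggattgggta
Maff, start at base 79347520, chr15:79347430-79347519, plus strand: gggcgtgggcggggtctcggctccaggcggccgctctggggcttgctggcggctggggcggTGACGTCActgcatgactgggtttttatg
Maff, start at base 79348402, chr15:79348312-79348401, plus strand: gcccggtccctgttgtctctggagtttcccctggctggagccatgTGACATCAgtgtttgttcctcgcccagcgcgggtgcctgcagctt
Fos, chr12:85473781-85473870, plus strand: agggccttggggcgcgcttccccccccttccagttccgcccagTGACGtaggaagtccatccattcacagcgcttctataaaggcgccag
Fosb, chr7:19310059-19310148, minus strand: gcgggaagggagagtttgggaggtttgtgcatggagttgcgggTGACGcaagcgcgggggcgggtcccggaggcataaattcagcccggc
Junb, chr8:84978808-84978897, minus strand: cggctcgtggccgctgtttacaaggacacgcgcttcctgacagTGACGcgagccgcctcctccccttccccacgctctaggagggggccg
TGACATCA was found in Jun at 45 to 38 bases before the start, in Klf6 at 119 to 112 bases and at one start of Maff at 45 to 38 bases, and 2.93% of all windows hold it. The full cAMP response element was found only at the Maff start at base 79347520, at 29 to 22 bases before it, and 1.55% of all windows hold it. The core TGACG, present in 17.8% of all windows, was the match in Fos, at 129 to 125 and at 66 to 62 bases before the start, and in Fosb and Junb. It was also found on the other strand at 122 to 118 bases before the Maff start at base 79348402, outside the stretch shown. TGACTCA, present in 4.46% of windows, was found in none of the 9, and neither Ier3 nor the outermost start of Maff had any of the 4 motifs within 250 bases. The CArG box bound by SRF was also in none of the 9 windows (1.47% of all), and the EGR site GCGGGGGCG (2.57% of all) was in the Fosb window only. A match gives letters in these windows and says nothing on binding in these livers, and a missing match says nothing on sites farther out.

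The genes are compact. The annotated spans run from 1240 bases (Ier3) to 12456 bases (Maff), against a median of 23495 bases over the 11762 protein-coding genes tested. In the main transcript (GENCODE vM21, GRCm38), Jun, Junb and Ier2 have 0 introns, Egr1 and Ier3 have 1, Myc and Maff have 2, and Fos, Fosb and Klf6 have 3. The median of the protein-coding genes tested was 8 introns, 2.31% of them had 0 introns, and 20.2% had at most 3, the range in which all 10 genes fall. The pentamer AUUUA, the core of AU-rich elements, occurred at 8.16 copies per kilobase of 3′ untranslated region in Ier3, 4.91 in Fos, 4.52 in Myc, 4.12 in Junb, 3.28 in Maff and 3.24 in Jun. These 6 lie above the upper quartile of 2.65 copies per kilobase over 11013 genes with at least 100 bases of 3′ untranslated region. Klf6 (2.25) and Egr1 (1.64) lie above the median of 1.32, whereas Fosb (0.466) and Ier2 (0) lie below it. Of the exon bases of Jun, 7.28% overlap the antisense gene Junos, and of those of Junb 7.52% overlap Prdx2 on the other strand. The sources used here do not say whether reads were counted by strand, so reads in those stretches could come from either gene.

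Between 8589636 and 10418450 counts fell on genes in each liver. Usp39 itself was at 9.58 ± 0.706 FPKM in controls and 8.44 ± 0.286 FPKM in Usp39-HKO livers (SD, n = 4 each), a log2 fold change of -0.41 (SE 0.11, adjusted p = 0.0212, edgeR quasi-likelihood test with Benjamini-Hochberg adjustment, and p = 0.029 in an exact two-sided permutation test, the smallest p that 70 assignments allow). That call was lost without control 4, without Usp39-HKO 4 and without TMM factors (log2 fold change -0.18). Only the floxed exon is removed, in a deletion that the paper calls hepatocyte-specific, whereas reads were counted per gene in whole liver. The Usp39 level here is therefore no measure of the deletion. The study assessed the deletion by immunoblotting of liver and primary hepatocytes, and it also measured Usp39 mRNA in liver by qPCR. TMM factors rescale each liver's total so that most genes do not shift. They lay between 0.911 and 0.940 in the control group and between 1.01 and 1.19 in the Usp39-HKO group, so FPKM ratios between the groups are larger than the fitted fold changes. Without them the median log2 fold change of all genes tested was 0.237 rather than -0.00148, and 83.5% instead of 48.4% of the calls were higher in Usp39-HKO. Mitochondrially encoded genes took 2.32% to 2.84% of counts in controls and 2.42% to 2.64% in Usp39-HKO livers. Control 4 stood apart in 7 markers of pancreas acinar cells, whose summed level was 560.7 FPKM there and 0.405 to 0.687 FPKM in the other controls, so results are also given without it.

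All 10 genes had a fitted log2 fold change above 0 in Usp39-HKO livers, and so did 49.9% of all genes tested. The values for the 9 genes tested ran from 0.23 (Ier2) to 1.63 (Ier3), with a median of 0.74. They fell into a group of 4 near 1.5 to 1.6 on the log2 scale, namely Ier3, Klf6, Myc and Maff, and a group of 5 between 0.23 and 0.74, namely the AP-1 subunits Fos, Jun and Junb with Egr1 and Ier2. In the same edgeR fit, 7 of the 9 passed an adjusted p of 0.05 in the higher direction and 0 in the lower direction, where 10.9% of all genes tested were called higher, 11.6% lower and 22.5% either way. The FPKM of every Usp39-HKO liver was above that of every control for 5 of the 10 genes, against 23.9% of all genes tested. On the TMM scale this held for 3 genes, Ier3, Klf6 and Myc, against 11.8% of all genes tested. Since this contrast chose the genes, nothing is read from these counts. The genes called were Jun, Junb, Egr1, Ier3, Klf6, Myc and Maff, and Fos and Ier2 were not called. When 1 liver at a time was left out, 4 to 8 of the 9 were called, 4 of them without control 3 or without Usp39-HKO 4 and 6 without control 4, while all 9 log2 fold changes stayed above 0.

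**Figure D1:**
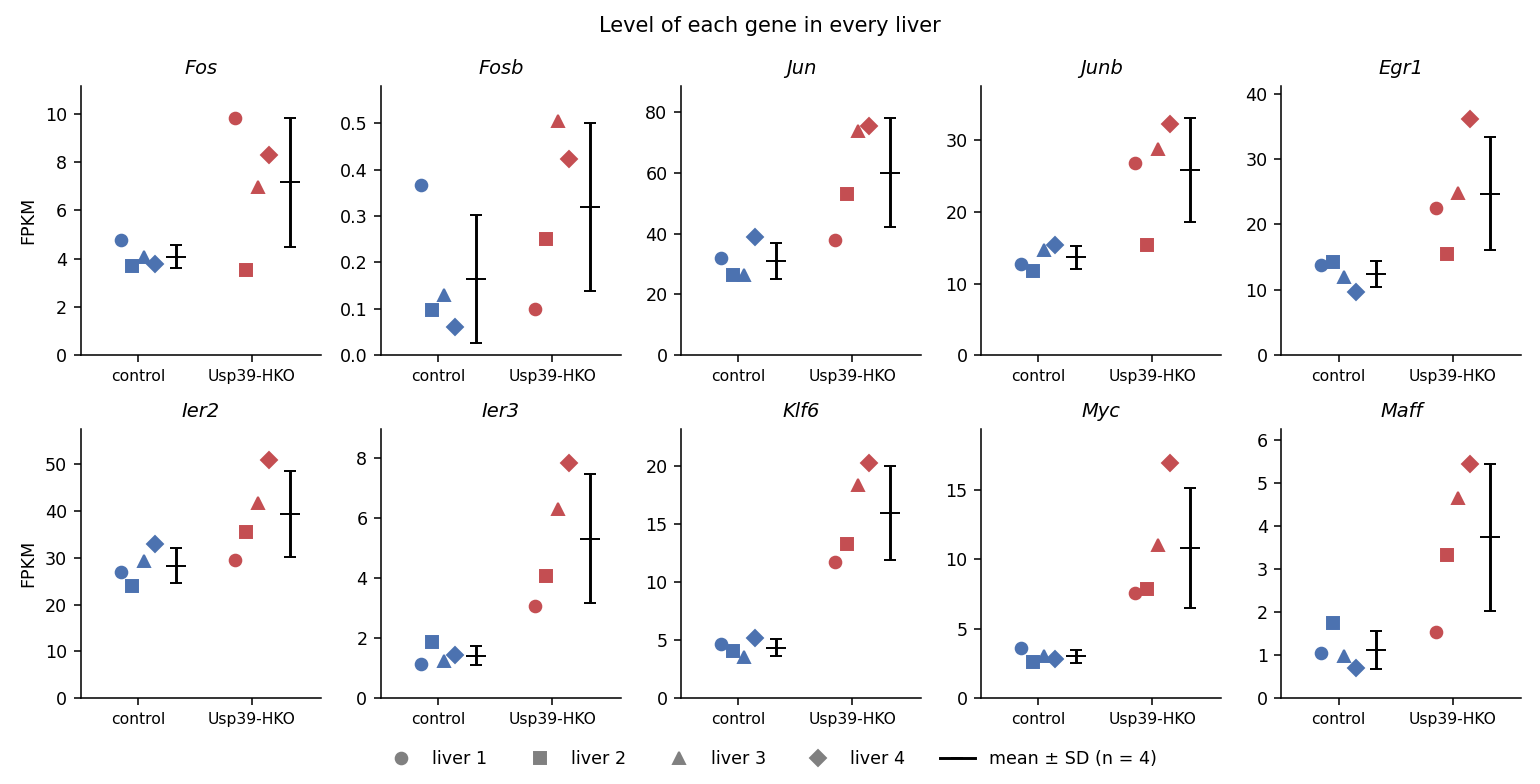
FPKM (y axes, linear from 0) of the 10 genes in the 4 control and 4 Usp39-HKO livers, with a marker shape for each liver number and the mean ± SD (n = 4) beside each group. Klf6, Myc and Ier3 are separated by a wide gap between the groups, whereas in Usp39-HKO 2 (square) Fos lies just below the controls and Junb and Egr1 just above them.

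In control livers the order of levels, per length, was Jun (30.9 FPKM), Ier2 (28.3), Junb (13.6), Egr1 (12.4), Klf6 (4.37), Fos (4.08), Myc (3.02), Ier3 (1.43), Maff (1.12) and Fosb (0.164). The ranges over livers overlapped between Jun and Ier2, between Junb and Egr1, between Klf6 and Fos and between Ier3 and Maff, so these neighbours were not separated by their spread. In Usp39-HKO livers the order of means was the same, except that Myc (10.8 FPKM) stood above Fos (7.15 FPKM). The coefficient of variation of FPKM within the group was larger in Usp39-HKO than in control livers for every gene but Fosb. It was, for example, 11.9% in controls and 37.3% in Usp39-HKO livers for Fos, 15.1% and 40.0% for Myc, and 39.6% and 45.6% for Maff.

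Jun was the most abundant of the 10 transcripts. JUN is the AP-1 subunit that regenerating hepatocytes need to progress through the cell cycle. Its FPKM was 32.0, 26.5, 26.4 and 38.9 in controls 1 to 4 and 38.0, 52.9, 73.7 and 75.4 in Usp39-HKO 1 to 4. Thus 3 Usp39-HKO livers were above every control, and Usp39-HKO 1 was just below control 4. The means were 30.9 ± 5.93 and 60.0 ± 17.9 FPKM (SD, n = 4 each), and the log2 fold change was 0.71 (SE 0.19), or 0.83 without control 4, in which Jun was highest among controls.

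Junb encodes a JUN relative that can oppose JUN on growth genes. Its FPKM was 12.7, 11.8, 14.7 and 15.4 in the controls and 26.8, 15.4, 28.7 and 32.2 in the Usp39-HKO livers. Usp39-HKO 2 was hardly above control 4, and the other 3 Usp39-HKO livers lay far above both. The log2 fold change was 0.68 (SE 0.19), 0.73 without control 4 and 0.86 without Usp39-HKO 2.

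Fos encodes the partner that gives AP-1 its strongest dimer with JUN. Its FPKM was 4.77, 3.69, 4.06 and 3.80 in the controls and 9.80, 3.55, 6.95 and 8.30 in the Usp39-HKO livers. The groups overlapped, since Usp39-HKO 2 had the lowest level of all 8 livers and Usp39-HKO 1 the highest. The means were 4.08 ± 0.487 and 7.15 ± 2.67 FPKM, and the log2 fold change of 0.58 (SE 0.26) became 0.81 without Usp39-HKO 2 and 0.36 without Usp39-HKO 1. Fosb, its near relative, rested on 4 to 21 reads per control liver and 6 to 30 per Usp39-HKO liver. At 0.366, 0.0970, 0.131 and 0.0615 FPKM in the controls and 0.0989, 0.251, 0.504 and 0.422 FPKM in the Usp39-HKO livers, its groups overlapped, and its log2 fold change in the fit with no filter was 0.69 (SE 0.47).

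Egr1 encodes a zinc finger factor that serum and MAP kinase signals induce through SRF. Its FPKM was 13.8, 14.2, 11.9 and 9.74 in the controls and 22.5, 15.5, 24.8 and 36.1 in the Usp39-HKO livers. Usp39-HKO 2 was again the lowest of its group, only just above control 2. The log2 fold change was 0.74 (SE 0.20), 0.63 without control 4 and 0.91 without Usp39-HKO 2. Ier2 encodes a nuclear protein induced by the same signals. It was at 26.9, 24.0, 29.3 and 32.9 FPKM in the controls and 29.4, 35.5, 41.7 and 50.9 FPKM in the Usp39-HKO livers. The groups overlapped in Usp39-HKO 1, and the log2 fold change of 0.23 (SE 0.14), the smallest of the 10, was 0.48 without TMM factors and 0.14 without Usp39-HKO 4.

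Ier3 encodes a stress-induced regulator of survival signalling. Its FPKM was 1.16, 1.87, 1.24 and 1.44 in the controls and 3.09, 4.08, 6.30 and 7.84 in the Usp39-HKO livers, so that the lowest Usp39-HKO liver was well above the highest control. The log2 fold change was 1.63 (SE 0.30), a 3.10-fold difference, on 12 to 21 reads per control liver. Maff encodes a small MAF protein, a bZIP partner of the NRF factors. Its FPKM was 1.05, 1.75, 0.987 and 0.703 in the controls and 1.55, 3.33, 4.65 and 5.45 in the Usp39-HKO livers. Usp39-HKO 1 lay below control 2, and the log2 fold change was 1.48 (SE 0.36), or 1.29 without control 4.

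Klf6 encodes a Kruppel-like zinc finger factor that injured liver induces. Its FPKM was 4.71, 4.04, 3.55 and 5.18 in the controls and 11.8, 13.3, 18.4 and 20.3 in the Usp39-HKO livers. No Usp39-HKO liver came near the highest control, and the fitted change had the smallest error of the 4 larger ones, with a log2 fold change of 1.62 (SE 0.17), a 3.07-fold difference. It stayed between 1.53 and 1.73 whichever liver was left out. Myc encodes the bHLH factor that drives ribosome production and growth. Its FPKM was 3.65, 2.60, 3.04 and 2.79 in the controls and 7.57, 7.83, 10.99 and 16.9 in the Usp39-HKO livers. All 4 Usp39-HKO livers were above all controls, Usp39-HKO 4 stood highest, and the log2 fold change of 1.59 (SE 0.22) became 1.35 without that liver.

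The Usp39-HKO livers did not order the 10 genes in 1 way. Usp39-HKO 4 had the highest FPKM of its group for 8 genes, Usp39-HKO 1 for Fos and Usp39-HKO 3 for Fosb. Usp39-HKO 1 was the lowest of its group for 7 genes (Fosb, Jun, Ier2, Ier3, Klf6, Myc and Maff). For Fos, Junb and Egr1 the lowest was Usp39-HKO 2. Relative to the mean of the controls, on the log2 scale of TMM-scaled read counts, Fos was at 1.13 in Usp39-HKO 1 and -0.44 in Usp39-HKO 2, and Junb at 0.84 and -0.06. Jun went the other way, with 0.16 and 0.54, and so did Maff, with 0.33 and 1.33. On that scale Myc was marginally lower in Usp39-HKO 2 (1.14) than in Usp39-HKO 1 (1.19), and the top liver for Jun and Klf6 was Usp39-HKO 3. The root mean square difference between profiles over the 8 livers, each standardized to mean 0 and SD 1, was smallest for Klf6 with Myc (0.261) and for Ier3 with Klf6 (0.307), and largest for Fos with Ier2 (1.16). Fos lay closer to Junb (0.507) and Egr1 (0.635) than to Jun (1.1).

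**Figure D2:**
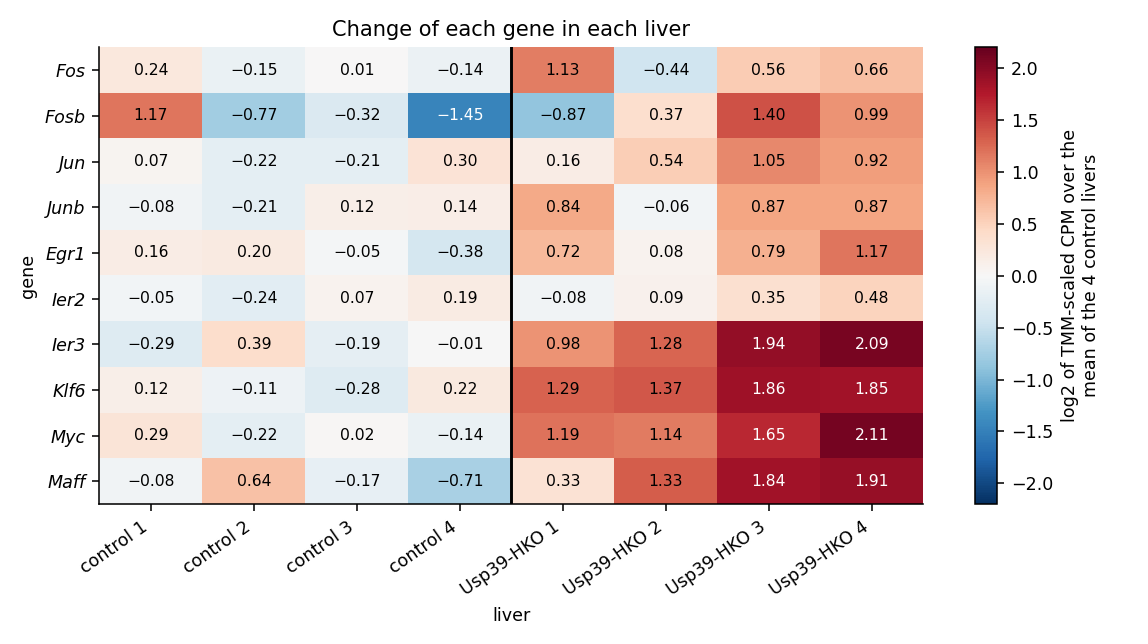
Log2 of the TMM-scaled read count of each gene (rows) in each liver (columns) over the mean of the 4 control livers, with red above and blue below that mean. Ier3, Klf6 and Myc are above it in all 4 Usp39-HKO livers, at 0.98 or more, while Fos, Junb and Egr1 fade in Usp39-HKO 2 and Jun, Ier2 and Maff in Usp39-HKO 1.

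Outside the selected genes, the profile over the 8 livers most like the mean standardized profile of the 9 tested was that of Tmcc3, a membrane protein of the endoplasmic reticulum (root mean square difference 0.16). It was followed by Fuca2 (0.179), a fucosidase, Zfp267 (0.183), a zinc finger protein, Sgtb (0.184), a cochaperone, and Rhob (0.19), which is itself an immediate early gene. Rhob was at 28.8 to 30.4 FPKM in controls and at 42.1, 48.9, 65.0 and 73.3 FPKM in Usp39-HKO 1 to 4, which is the same order of livers as for Jun and Klf6. Closest to Myc were Fgl2 (0.11), Rnd3 (0.144) and Rad21 (0.167). Rnd3 was at 6.30 FPKM on average in controls and at 12.5, 12.1, 14.3 and 19.0 FPKM in Usp39-HKO 1 to 4. Closest to Klf6 were Myl12a (0.175), a myosin light chain at 9.04 and 20.7 FPKM on average, Nol8 (0.179) and Ift57 (0.188). Likeness was ranked over all genes tested, and with 2 groups of 4 it is mostly a likeness of the step between genotypes.

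The gene lists that follow surround the selected genes in their pathways. The lists are not independent, since 6 genes stand in more than 1 of them, among them Klf4, Dusp1, Zfp36 and Nab2. They were tested in the edgeR fit over all genes, and counts and medians are to be read beside the 10.9% of genes called higher, the 11.6% called lower and the median of -0.00148 over all genes tested. Of 8 further AP-1 subunits tested, 2 rose and 0 fell. Atf3, a stress-induced bZIP factor, went from 1.24 to 2.78 FPKM over the controls to 3.87 to 25.9 FPKM over the Usp39-HKO livers (log2 fold change 2.56, SE 0.50, adjusted p = 0.0052, edgeR). Fosl2 rose less, from 3.91 to 6.71 FPKM on average (0.53, SE 0.17, adjusted p = 0.0399), and the count dropped to 1 when any control, Usp39-HKO 3 or Usp39-HKO 4 was left out. The most abundant member not called was Jund, at 28.4 ± 4.16 and 44.2 ± 15.9 FPKM (adjusted p = 0.222).

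Of 35 other immediate early genes tested, of 41 listed, 9 rose, 0 fell and 26 were not called, with a median log2 fold change of 0.16. Gadd45a, a stress sensor, showed the largest change, from 0.607 ± 0.0686 to 3.77 ± 2.33 FPKM (log2 fold change 2.36, SE 0.44, adjusted p = 0.00422, edgeR). Ier5 (1.55), the matrix protein gene Ccn1 (1.52) and the kinase gene Plk2 (1.41) followed, with every Usp39-HKO liver above every control. The genes of the list most abundant in controls, Cebpb and Gadd45g, did not follow. Cebpb was at 114.0 ± 24.6 and 113.8 ± 50.4 FPKM, and Gadd45g at 79.0 ± 10.5 and 78.4 ± 47.5 FPKM, with adjusted p of 0.641 and 0.707. Other abundant genes were called higher, namely Btg2 (31.5 and 94.6 FPKM), Mcl1 (35.6 and 54.05 FPKM) and Rhob (29.8 and 57.3 FPKM). Their adjusted p in edgeR was 0.00323, 0.028 and 0.0046.

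Among 24 kinases and factors upstream of immediate early promoters (SRF, its TCF partners and MAP kinases), 0 rose and 1 fell, with a median of -0.0716, whereas without TMM factors 4 were called, all higher. The one that fell was Map2k3, a kinase of p38, from 17.4 ± 1.78 to 14.3 ± 1.59 FPKM (log2 fold change -0.51, SE 0.13, adjusted p = 0.0171, edgeR). The count was 0 without control 1 or Usp39-HKO 4, 2 without control 2, of which 1 was lower, and 4 without Usp39-HKO 1, of which 2 were lower. Mapk14, p38 itself, was at 28.8 and 28.1 FPKM and Mapkapk2 at 46.3 and 60.3 FPKM (adjusted p = 0.0758 and 0.499). The feedback inhibitors that MAP kinase signalling induces gave another picture, with 6 of 16 higher, 0 lower and a median of 0.432. One of the 16, Dusp2, reached 0.5 FPKM in all 4 Usp39-HKO livers but not in all controls. Without it 6 of 15 were higher, with a median of 0.422. Dusp8 (log2 fold change 1.96, SE 0.33, adjusted p = 0.00244) and Dusp5 (1.69, SE 0.34, adjusted p = 0.00586), phosphatases of MAP kinases, were at 1.19 and 1.69 FPKM in controls and at 5.50 and 6.53 FPKM in Usp39-HKO livers. Spry2 (0.96) and Spred1 (0.83), inhibitors of growth factor signalling to RAS and RAF, rose too. The abundant phosphatase gene Dusp1 was at 36.5 ± 3.85 and 36.5 ± 7.51 FPKM (adjusted p = 0.339), and Nab1, a corepressor of EGR1, at 24.0 and 32.9 FPKM (adjusted p = 0.138).

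**Figure D3:**
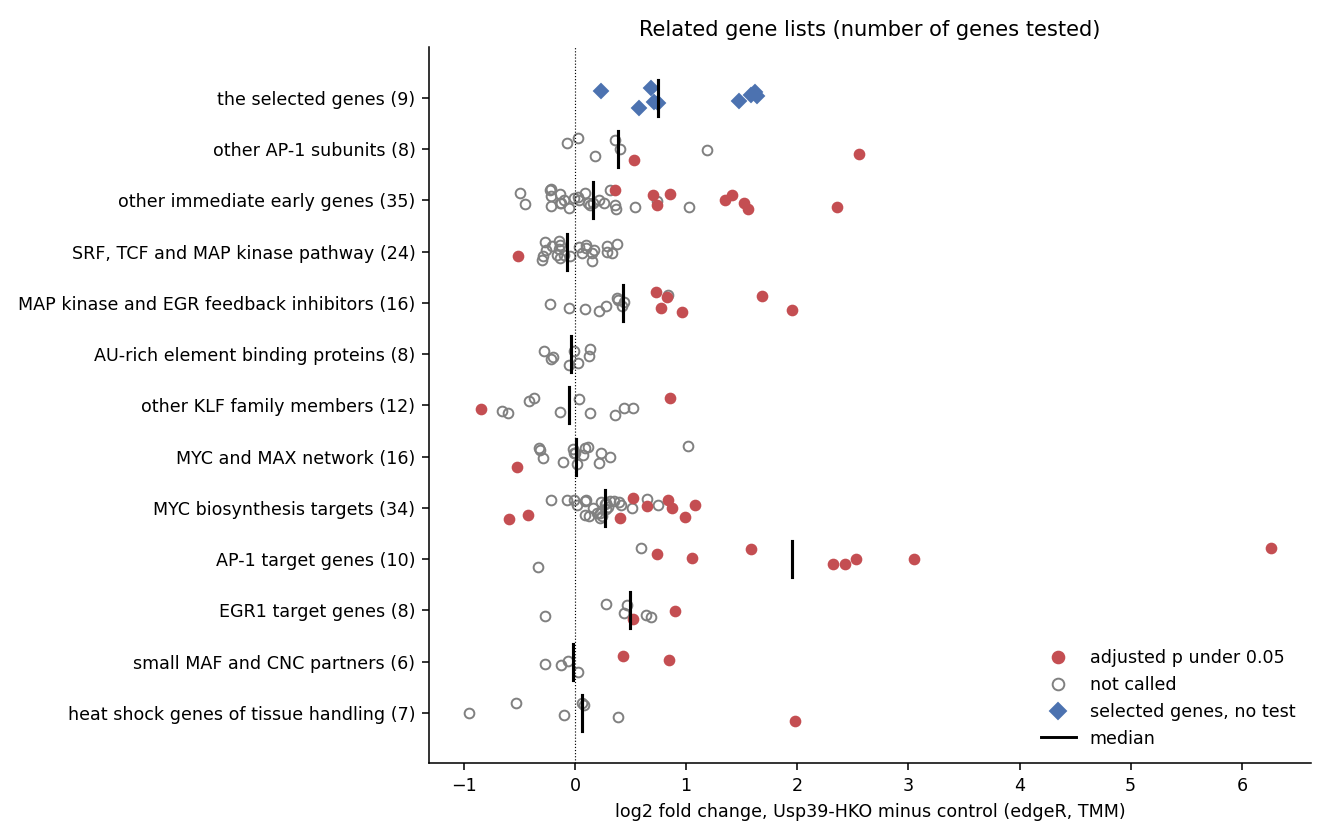
Fitted log2 fold changes (x axis, Usp39-HKO minus control) of every tested gene of 12 related lists, with the selected genes in the top row, filled red points for genes at an adjusted p under 0.05 and a black bar at each median. Feedback inhibitors and AP-1 target genes, of which 1 and 5 were tested only through their level in Usp39-HKO livers, lie mostly to the right, SRF and MAP kinase genes and AU-rich element binding proteins lie around 0, and the points beyond 3 are Timp1 and Lif, with 3 and 1 reads over all controls.

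Of 10 genes tested with textbook AP-1 sites, 8 were called higher and 0 lower, with a median log2 fold change of 1.95, also with the nearly unread genes held at a floor of 3 reads over the controls. However, 5 of the 10 (Timp1, Plaur, Hbegf, Lif and Ccl2) reached 0.5 FPKM in all 4 Usp39-HKO livers and not in all controls, so they entered the test through the group in which they were high, and the count of 8 and the median are not to be set against the other lists. Of the other 5, a split made after the values were seen, 3 were called higher and 0 lower, with a median of 0.74. Ccnd1, cyclin D1, was at 1.73 to 8.40 FPKM in controls and 13.2 to 37.8 FPKM in Usp39-HKO livers (log2 fold change 2.43, SE 0.43, adjusted p = 0.00321, edgeR). The cytokine gene Lif had 1 read in the 4 controls and 133 in the 4 Usp39-HKO livers, a ratio of 130.0 with a 95% counting interval of 23.0 to 5180, and Timp1, a metalloproteinase inhibitor, had 3 and 34 reads, a ratio of 11.1 (3.49 to 56.4). The intervals cover counting error only. Ccl2, a chemokine for monocytes, was at 0.233 ± 0.300 and 1.64 ± 0.812 FPKM (adjusted p = 0.0192, edgeR). Plau (0.983 and 1.76 FPKM, adjusted p = 0.0948) and Mmp9 (1.45 and 1.35 FPKM, adjusted p = 0.459) were not called. Of 8 EGR1 target genes tested 2 rose and 0 fell, with a median of 0.497. These were Pdgfb, from 0.732 to 1.62 FPKM (log2 fold change 0.90, SE 0.18, adjusted p = 0.00632), and Tgfb1, from 3.71 to 6.33 FPKM (0.53, SE 0.14, adjusted p = 0.0215), and the count dropped to 1 without control 1, 3 or 4 or Usp39-HKO 3 or 4 and was 4 without Usp39-HKO 1, of which 1 was lower. Icam1, an adhesion molecule for leukocytes, was at 5.55 ± 0.889 and 9.02 ± 1.54 FPKM and was not called (adjusted p = 0.0519, edgeR).

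In the network of MYC and MAX, 0 of 16 genes tested rose and 1 fell, with a median of 0.00796. That gene was Mlxipl, which encodes the carbohydrate response factor ChREBP, at 19.3 ± 1.99 and 15.7 ± 1.599 FPKM (log2 fold change -0.52, SE 0.12, adjusted p = 0.0113, edgeR). The count was 2 without control 2, both lower, and 2 without Usp39-HKO 2, of which 1 was lower, and without TMM factors 4 genes were called and all of them higher. Mlx and Mxd4 were at 16.3 and 10.2 FPKM in controls and at 15.6 and 12.1 FPKM in Usp39-HKO livers. Of 34 nucleolar, nucleotide and growth genes that MYC is known to induce, 7 rose and 2 fell, with a median of 0.274. Mthfd2, which was not called, reached 0.5 FPKM in all 4 Usp39-HKO livers but not in all controls. Without it the median of the other 33 was 0.273. Those that rose included Gar1 (log2 fold change 1.08, SE 0.26), a subunit of box H/ACA snoRNPs, and Gnl3 (0.99, SE 0.15), Cdc25a (0.87, SE 0.20) and Ppan (0.84, SE 0.18). The serine pathway gene Shmt2 fell from 61.6 ± 6.57 to 47.8 ± 5.19 FPKM (-0.60, SE 0.12), and Bop1, a factor of ribosome assembly, from 11.9 to 10.42 FPKM (-0.42, SE 0.11). The most abundant gene of the list, Ldha, was at 515.4 ± 44.2 and 522.4 ± 25.1 FPKM (adjusted p = 0.277), and Eif4a1 was at 67.2 and 103.7 FPKM (adjusted p = 0.0717). The split depended on scaling, since 21 genes were called without TMM factors, of which 1 was lower.

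Of 12 other KLF genes tested 1 rose and 1 fell, with a median of -0.051. The gene that rose, Klf4, is also counted among the other immediate early genes above. Klf4 went from 1.37 to 2.94 FPKM (log2 fold change 0.86, SE 0.24, adjusted p = 0.0243, edgeR) and Klf12 from 7.06 to 4.70 FPKM (-0.84, SE 0.28, adjusted p = 0.0474). Neither was called without control 1, control 4, Usp39-HKO 3 or Usp39-HKO 4, only 1 gene was called without control 3, and 6 were called without Usp39-HKO 1, of which 4 were lower. The abundant Klf15 and Klf9, which fasting and glucocorticoids induce in liver, were at 78.3 and 57.1 FPKM in controls and at 59.9 and 51.6 FPKM in Usp39-HKO livers (adjusted p = 0.0794 and 0.145). Around Maff, 2 of 6 small MAF and CNC genes rose and 0 fell, with a median of -0.0185. They were Mafk (0.85, SE 0.16, adjusted p = 0.00471), from 6.28 to 13.3 FPKM, and Nfe2l2, which encodes NRF2 (0.43, SE 0.09, adjusted p = 0.00823), from 24.6 to 39.0 FPKM. Mafg and Nfe2l1, at 18.4 and 32.8 FPKM in controls, had adjusted p of 0.109 and 0.905. Of 8 proteins that bind AU-rich elements, 0 were called in edgeR, 1 of them had an unadjusted p under 0.05, and DESeq2 called 0. Zfp36l1 and Zfp36, which bring such mRNAs to decay, were at 91.0 and 37.0 FPKM in controls and at 92.6 and 41.8 FPKM in Usp39-HKO livers.

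Handling and warm storage of tissue also raise heat shock genes, and their values are set beside the above. Of 7 tested, 1 rose and 0 fell, with a median log2 fold change of 0.0601. Hspb1 went from 4.21 to 10.3 FPKM over the controls to 10.3 to 74.3 FPKM over the Usp39-HKO livers (1.98, SE 0.48, adjusted p = 0.0143, edgeR). Hspa8 was at 285.7 ± 28.5 and 351.0 ± 57.8 FPKM (adjusted p = 0.809) and Hsp90aa1 at 47.3 ± 6.48 and 73.3 ± 17.3 FPKM (adjusted p = 0.108). Without Usp39-HKO 2, 3 genes of the list were called, of which 2 were lower, and without Usp39-HKO 1 there were 2, both higher. The paper describes HSF1 as the master regulator of this response. It reports less Hsf1 mRNA and protein in Usp39-HKO livers. In the heat shock genes, handling and the change in Hsf1 therefore cannot be told apart. The part of tissue handling in the levels of the selected genes was not tested.

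In whole liver, a change in the share of a cell type and a change in RNA per cell cannot be told apart. Hepatocyte markers were high throughout, at a summed 14390 to 16320 FPKM over 6 genes in controls and 12960 to 17930 FPKM in Usp39-HKO livers, and 6 endothelial markers summed to 97.5 to 109.0 and 102.0 to 106.2 FPKM. Of the hepatocyte markers 0 were called higher and 1 (Cps1) lower, with a median log2 fold change of -0.318. Of the endothelial markers 0 were called higher and 2 (Stab2 and Lyve1) lower, with a median of -0.0683. The sums here are of FPKM, which carries no TMM factor. The sum of 7 Kupffer cell and macrophage markers, of which 6 were called higher, was 293.3 to 380.6 FPKM in controls and 536.9 to 807.9 FPKM in Usp39-HKO livers. That of 7 stellate cell and fibroblast markers, 5 of them called higher, was 60.0 to 70.6 and 99.4 to 189.3 FPKM, and that of 5 cholangiocyte markers, of which 4 were tested and all 4 called higher, 26.4 to 28.7 and 64.1 to 285.2 FPKM. Most of that last sum was Spp1, at 23.2 to 24.98 and 59.8 to 263.1 FPKM, which is also 1 of the AP-1 target genes called above, and the other 4 cholangiocyte markers summed to 3.14 to 3.71 and 4.33 to 22.2 FPKM. Krt19, 1 of the 4 cholangiocyte markers called, reached 0.5 FPKM in all 4 Usp39-HKO livers but not in all controls (0.439 to 0.925 FPKM). It entered the test through the group in which it was high, so the count of 4 is not to be set against the other lists. The sum of 5 erythroid markers, all called lower, went the other way, from 368.6 to 771.3 FPKM in controls to 154.7 to 364.4 FPKM. No marker of these lists was at 0 in all livers.

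These sums varied over the Usp39-HKO livers beside the selected genes. The Kupffer cell, stellate cell and cholangiocyte sums were highest in Usp39-HKO 4, the liver in which 8 of the 10 genes were highest, and lowest in Usp39-HKO 1, in which 7 were lowest, and this held for the cholangiocyte markers without Spp1 too, at 4.33, 11.1, 12.5 and 22.2 FPKM in Usp39-HKO 1 to 4. These orders are of FPKM, without the TMM factors of 1.012 in Usp39-HKO 1 and 1.189 in Usp39-HKO 4. On the TMM scale Usp39-HKO 4 was highest for 6 of the selected genes and Usp39-HKO 1 lowest for 6. Fos had another order, and so had the neutrophil markers. The sum of 5 neutrophil markers overlapped between the genotypes, at 23.7 to 50.6 FPKM in controls, and was 89.8 FPKM in Usp39-HKO 1, where Fos was highest, 32.3 in Usp39-HKO 2, where Fos was lowest, and 16.7 and 50.4 in Usp39-HKO 3 and 4. Over the controls the order was reversed. There the sum was lowest in control 1 (23.7 FPKM), where Fos was highest, and highest in control 2 (50.6 FPKM), where Fos was lowest. The part of these cells in the levels of the selected genes was not tested. Markers of T and B lymphocytes were at a sum of 2.50 to 3.84 FPKM in controls and 2.51 to 4.24 FPKM in Usp39-HKO livers.

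**Figure D4:**
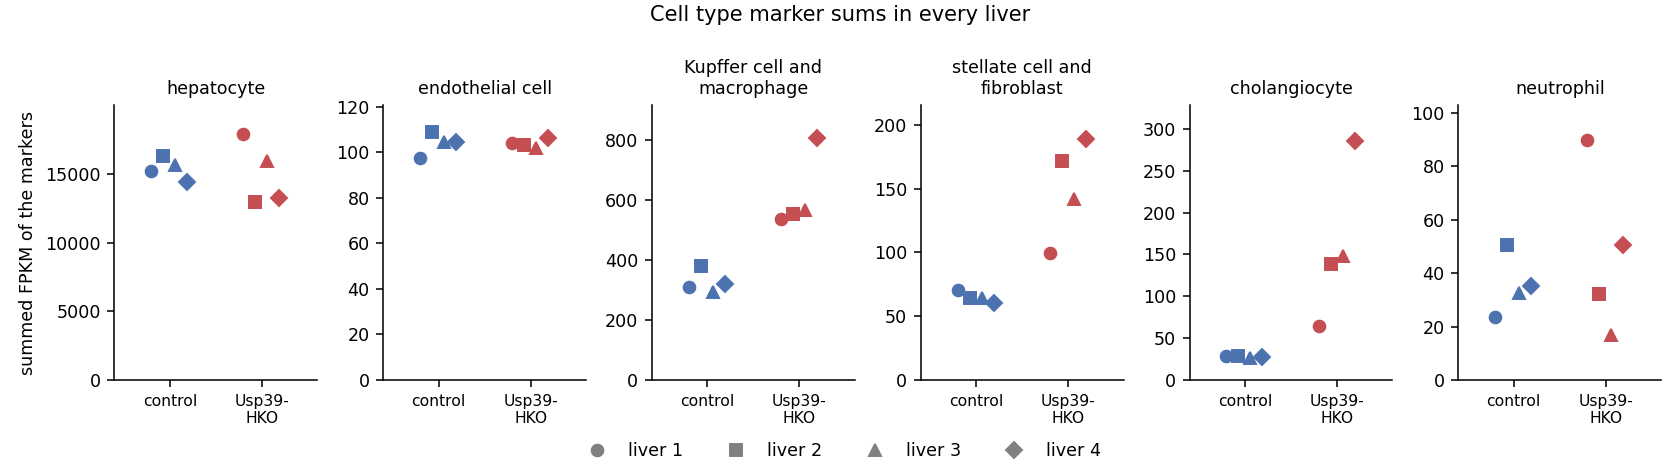
Summed FPKM (y axes, linear from 0) of 6 cell type marker lists in each of the 8 livers, with a marker shape for each liver number. The Kupffer cell, stellate cell and cholangiocyte sums of all 4 Usp39-HKO livers lie above those of all controls and are highest in Usp39-HKO 4, while the hepatocyte, endothelial and neutrophil sums overlap.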

How the data were processed

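RNA of 8 mouse livers was sequenced as read pairs. Per the methods and the submitters' processing notes, reads were trimmed with Trim Galore 0.6.1, aligned to mm10 with HISAT2 and counted per gene with featureCounts. The annotation release and strand setting are not given in the sources used here. The authors deposited raw counts per gene and FPKM values, the latter reproduced here from count, gene length and column total to within 5e-07. The deposited table also holds the authors' DESeq2 comparison (mean signal of normalized counts, log2 fold change, its error and statistic as scores, and p-values), which was not used.

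Repeated rows (314 of 55699) were dropped. Genes with FPKM of at least 0.5 in at least 4 livers were tested on counts with edgeR 4.0.16 (quasi-likelihood test, TMM factors, two-sided, Benjamini-Hochberg adjustment, 6 residual degrees of freedom), and the SE was taken from the log2 fold change and its F statistic. The mice were separate animals. The scripts were tested on simulated data. Alternatives used DESeq2 1.42.0, limma 3.58.1 on log2(FPKM + 1) and log2(FPKM + 0.1), other scaling and filters, and left out 1 liver at a time. The selected genes and all lists were chosen with earlier results of these data known. Named were all selected genes, of each list up to 4 called genes per direction by fold change and up to 2 abundant genes not called, Usp39, and the 5 (for Myc and Klf6, 3) genes of most similar profile; 1 gene that this rule names is not reported here. Gene structure came from GENCODE vM21 and promoters from RefSeq. Totals of 8589636 to 10418450 counts per liver limit precision for genes such as Fosb.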

Additional observations from a re-analysis of the deposited data

Results flagged for a closer look

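In 146 groups of 4 livers examined, 8 had a highest or lowest liver whose gap to the next exceeded Dixon's 95% limit for its share of the group's range, and chance gives about 1 in 20, or 7.3. None was in 1 of the 10 selected genes. In Usp39-HKO livers, Plk2 was highest in Usp39-HKO 3 (22.01 FPKM, others 11.4 to 13.2), Shmt2 in Usp39-HKO 2 (55.6 FPKM, others 44.6 to 46.1) and the Kupffer cell and macrophage marker sum in Usp39-HKO 4 (807.9 FPKM, others 536.9 to 567.0), and Ppan was lowest in Usp39-HKO 2 (5.71 FPKM, others 9.004 to 9.48). In controls, Lif was at 0.0250 FPKM in control 1, on its 1 read, and at 0 in the others. Tgfb1 was highest in control 2 (4.58 FPKM, others 3.29 to 3.499), Mafk lowest in control 1 (5.28 FPKM, others 6.54 to 6.67), and the pancreas acinar cell marker sum highest in control 4 (560.7 FPKM, others 0.405 to 0.687).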

How the results depend on the processing

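The fitted log2 fold changes of the 9 selected genes tested stayed above 0 under each of the 15 alternatives that tested them (Ier3 and Maff were not tested at a mean FPKM of at least 5). Of 133 values, 131 moved by less than the SD within groups, and the other 2 were Ier2 at 0.48 without TMM factors and 0.46 in limma on log2(FPKM + 0.1). Leaving out 1 liver gave 0.36 to 0.81 for Fos, 0.58 to 0.87 for Jun, 0.61 to 0.86 for Junb, 0.56 to 0.91 for Egr1, 0.14 to 0.34 for Ier2, 1.44 to 1.82 for Ier3, 1.53 to 1.73 for Klf6, 1.35 to 1.72 for Myc and 1.29 to 1.78 for Maff. Over all genes, 3225 calls became 1595 at a mean FPKM of at least 5, where 6672 genes were tested, 4221 without TMM factors, and 1931 to 3510 with 1 liver left out, the low values being 1931 without control 3, 2043 without control 4 and 2094 without Usp39-HKO 4. The cutoffs that the study states, 0.05 for p and 0.5 for the log2 fold change, gave 3116 on the unadjusted p of the edgeR fit used here. The study itself used DESeq2 and does not say whether its p was adjusted. Usp39 was at -0.18 without TMM factors, -0.16 in limma on log2(FPKM + 1) and -0.18 on log2(FPKM + 0.1), and the test was no longer passed in any of these (adjusted p = 0.247, 0.168 and 0.164, edgeR and limma, over a range of 0.0148 to 0.247 for all alternatives). It ran from -0.45 to -0.35 with 1 liver left out, with adjusted p of 0.0547 without control 4 and 0.0615 without Usp39-HKO 4.

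Without TMM factors the calls, all but 1 of them higher, were 4 for other AP-1 subunits, 4 for the SRF and MAP kinase list, 12 for feedback inhibitors, 1 for AU-rich element binding proteins, 4 for the MYC and MAX network, 21 for MYC biosynthesis targets, 6 for EGR1 targets and 2 for heat shock genes. FPKM carries no such factor, and limma on log2(FPKM + 1) and log2(FPKM + 0.1) gave 2 and 2 for the SRF and MAP kinase list, 12 and 11 for feedback inhibitors, 2 and 2 for the MYC and MAX network, 17 and 16 for MYC biosynthesis targets, 5 and 5 for EGR1 targets and 2 and 2 for heat shock genes. The filter on a mean FPKM of at least 5, which tests fewer genes, left 1 call for feedback inhibitors, 1 for other KLF genes and 3 for AP-1 targets. Other KLF genes had 1 call with median-ratio factors and 4 in DESeq2, of which 2 were lower, and heat shock genes had 2 with no filter, of which 1 was lower, and the cause was not tested. With 1 liver left out, calls ran from 1 to 2 for other AP-1 subunits, 7 to 11 for other immediate early genes, 0 to 4 for the SRF and MAP kinase list, 4 to 8 for feedback inhibitors, 0 to 1 for AU-rich element binding proteins, 0 to 6 for other KLF genes, 1 to 2 for the MYC and MAX network, 6 to 12 for MYC biosynthesis targets, 7 to 9 for AP-1 targets, 1 to 4 for EGR1 targets, 2 to 2 for small MAF and CNC partners and 1 to 3 for heat shock genes. No paired analysis was possible because the labels number no replicates across the genotypes and do not give the litter of each mouse. An effect of litter was therefore not modelled. Depth limits Fosb, Lif and Timp1, which rest on few reads.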

Other observations

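All 10 selected genes have at most 3 introns, and the calls over all protein-coding genes tested are given here by number of introns. Of 272 genes with 0 introns, the class of Jun, Junb and Ier2, 13.6% were called higher and 4.78% lower, with a median log2 fold change of 0.07. Of 2107 genes with 1 to 3 introns, the class of Fos, Egr1, Ier3, Klf6, Myc and Maff, 14.4% were called higher and 6.88% lower, with a median of 0.09. Of 9383 genes with more than 3 introns, 12.1% were called higher and 14.4% lower, with a median of -0.01. The differences between these classes were not tested.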
